A study of Mus musculus with 6 samples.

Results

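Messenger RNA of 10 endothelial genes was followed in the trigeminal ganglion, the sensory ganglion that supplies the face and the meninges. The genes were Pecam1, Cldn5, Kdr, Flt1, Tek, Cdh5, Tie1, Eng, Egfl7 and Esam. They were chosen by name as marker genes of blood vessel endothelium and not by their values, though earlier results of these data were known. All 10 were found among the 17524 genes of the deposited table, and all 10 were among the 17475 genes tested. The 6 bulk libraries came from wild-type mice, 3 from a group given vehicle and 3 from a group given NTG. The labels do not spell NTG out; mouse models of migraine often use those letters for nitroglycerin, which releases nitric oxide and widens vessels. They give no strain, sex, age, dose or time after treatment, and they do not tie a replicate to an animal. The p-values therefore measure the spread between these libraries, which may be technical.

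Endothelial cells line every blood vessel and make its inner barrier. They are held together by adherens junctions of VE-cadherin (Cdh5) and, in barrier vessels, by tight junctions rich in claudin-5 (Cldn5). Their growth and stability are set by receptors for vascular endothelial growth factor (VEGF) and for angiopoietins. In sensory ganglia, the vessels around the cell bodies are known to be more permeable than those of the nerve trunk.

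Libraries held 18813027 to 23774244 reads. A normalised read is a read count divided by the size factor of its library, and 1 read was worth 0.867 to 1.10 normalised reads. Every member was well above the counting floor, with 142 to 831 reads in a library. The ganglion neuron genes Tubb3, Nefh, Scn10a, Isl1 and Pou4f1 were all abundant, between 2171 normalised reads for Isl1 and 81293 for Nefh in vehicle (means, n = 3). The markers of the labelled tissue were thus present. In bulk RNA, fewer endothelial cells and less RNA per endothelial cell cannot be told apart.

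Of the 10 genes, 1 rose and 1 fell in NTG. Tek, the angiopoietin receptor TIE2, was 1.39-fold higher, and Cldn5 was 1.25-fold lower. The other 8 did not pass the test (limma-trend on log2 of the value plus 1, Benjamini-Hochberg adjusted p under 0.05 over all genes tested). Among all genes tested 25.8% passed, 12.3% upward and 13.5% downward, so 2 of 10 is near the background. The median log2 fold change of the 10 genes was 0.00, as was that of all genes tested. The 10 had no common direction: 5 means were higher in NTG and 5 were lower. The 2 groups did not overlap in 2 of the 10, against 39.7% of all genes tested.

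**Figure D1:**
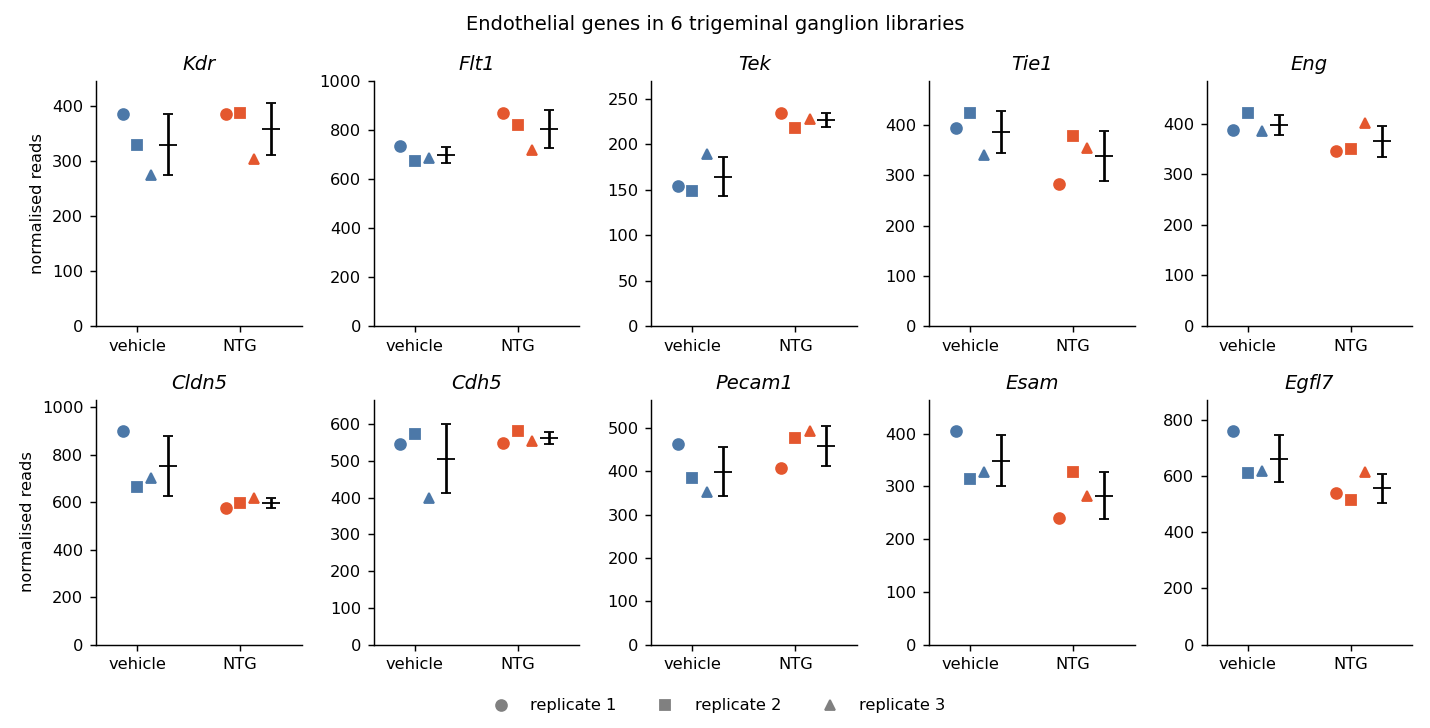
Normalised reads (vertical axis, starting at 0) of the 10 endothelial genes in vehicle and NTG libraries (horizontal axis). Each symbol is 1 library, its shape gives the replicate number, and the black mark is the mean with its SD (n = 3). The groups do not overlap in Tek and Cldn5 and overlap in the other 8.

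Transcripts of the 2 genes that passed differ in base composition, which is shown here because the direction of change among the members followed it. Each stretch is the 120 bases about the middle of the coding sequence of the longest protein-coding transcript (GENCODE M21, GRCm38, plus strand), with G and C in capitals. The Tek stretch lies in exon 12 (chr4:94837122-94837241) and holds 55 G or C bases. The Cldn5 stretch lies in the only exon of that gene (chr16:18777263-18777382) and holds 80.
Tek: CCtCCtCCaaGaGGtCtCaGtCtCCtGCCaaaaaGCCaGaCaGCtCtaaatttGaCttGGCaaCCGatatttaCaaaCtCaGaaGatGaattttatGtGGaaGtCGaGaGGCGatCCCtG
Cldn5: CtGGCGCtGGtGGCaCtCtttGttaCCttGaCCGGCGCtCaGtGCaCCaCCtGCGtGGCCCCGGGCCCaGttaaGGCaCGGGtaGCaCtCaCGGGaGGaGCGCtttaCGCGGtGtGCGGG

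Gene positions follow the deposited rows (GRCm38). Kdr (chr5:75932827-75979072, minus strand) encodes VEGFR2, the main signalling receptor for VEGF-A on endothelium. It was listed at 385, 329 and 274 normalised reads in vehicle replicates 1 to 3 and at 384, 387 and 303 in NTG replicates 1 to 3. The ranges overlapped nearly completely, and the means were 329 ± 55.2 and 358 ± 47.6 (SD, n = 3 each). The log2 fold change of 0.13 ± 0.13 did not pass (SE, limma adjusted p = 0.521), and its 95% confidence interval ran from -0.15 to 0.40. Flt1 (chr5:147561604-147726438, minus strand) encodes VEGFR1, which binds VEGF tightly and also exists as a soluble decoy. Vehicle libraries stood at 737, 674 and 687 normalised reads and NTG libraries at 871, 822 and 719.6. NTG replicate 3 lay among the vehicle values and the other NTG libraries above them. Flt1 had a log2 fold change of 0.20 ± 0.08 (limma adjusted p = 0.0935), and it passed when NTG replicate 3 was left out (0.28, limma adjusted p = 0.0294). The ratio of Flt1 to Kdr, chosen after its values were seen, was 2.16 ± 0.31 in vehicle and 2.25 ± 0.12 in NTG (SD, n = 3 each).

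Of the 8 other VEGF ligands and receptors tested, 2 passed, where 25.8% of all genes tested did. Both were ligands that fell. Vegfb, a ligand of VEGFR1, fell from 1152 ± 88.5 to 689.7 ± 49.3 normalised reads (-0.74 ± 0.08, limma adjusted p = 4.13e-06), and its 3 NTG values were all below the vehicle values. Vegfa, the ligand that drives vessel growth through VEGFR2, fell from 1316 ± 36.5 to 1106 ± 117 (-0.26 ± 0.08, limma adjusted p = 0.018). The call of Vegfa was lost without NTG replicate 1 (-0.17, limma adjusted p = 0.145). Both also passed in a GC-corrected fit, in which the dependence of log2 values on transcript GC content and length was fitted and subtracted library by library, with log2 fold changes of -0.36 for Vegfb and -0.26 for Vegfa (limma adjusted p = 0.00131 and 0.022). The co-receptor Nrp1 (0.15 ± 0.06, limma adjusted p = 0.0957) and the lymphatic ligand Vegfc (-0.47 ± 0.39, limma adjusted p = 0.406) did not pass.

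Tek (chr4:94739086-94874976, plus strand), the receptor through which angiopoietins keep vessels quiescent, stood at 155, 149 and 189 normalised reads in vehicle and at 235, 219 and 228 in NTG. All 3 NTG values were above all 3 vehicle values, and vehicle replicate 3 was the nearest. From 164 ± 21.8 the mean went to 227 ± 8.05 (SD, n = 3 each), a log2 fold change of 0.47 ± 0.14 with a 95% confidence interval of 0.18 to 0.76 (limma adjusted p = 0.0161). This call was lost without vehicle replicate 2 (0.40, limma adjusted p = 0.0581) and without NTG replicate 1 (0.45, limma adjusted p = 0.0738). Tie1 (chr4:118471191-118489849, minus strand), an orphan receptor that pairs with TIE2 and modulates it, was listed at 393, 424 and 340.4 in vehicle and 283, 379 and 354 in NTG. Its groups overlapped, with NTG replicate 1 the lowest of the 6 libraries. The log2 fold change of Tie1 was -0.19 ± 0.12 (limma adjusted p = 0.260). The ratio of Tek to Tie1, a comparison chosen after its values were seen, was 0.393, 0.352 and 0.557 in vehicle and 0.830, 0.577 and 0.645 in NTG, so each NTG library was above each vehicle library. The pair sets a gene with a higher NTG mean over one with a lower NTG mean, which favours such a split. Tek has a transcript GC content of 47.1% and Tie1 one of 57.6%, and the part of that difference in the ratio was not tested.

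Of the other 4 genes of angiopoietin and Tie signalling, 0 passed in limma, 0 at an unadjusted p under 0.05 in limma and 0 in edgeR. The TIE2 agonist gene Angpt1 had a log2 fold change of 0.43 ± 0.26 (limma adjusted p = 0.245) and, of the fits lacking 1 library, passed in the one without vehicle replicate 3 (0.75, limma adjusted p = 0.0257). Angpt2, the context-dependent antagonist released by endothelium, went from 596 ± 80.0 to 655 ± 80.5 normalised reads (0.14 ± 0.10, limma adjusted p = 0.363). It overlaps Mcph1 on the opposite strand over 51300 bases, and Mcph1 was listed at 0.410 times its level. Ptprb, the phosphatase VE-PTP that acts on TIE2, had a log2 fold change of 0.06 ± 0.09 (limma adjusted p = 0.703).

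Eng (chr2:32646595-32682669, plus strand) encodes endoglin, the co-receptor that presents BMP9 to the ALK1 receptor on endothelium. Its values were 388, 421 and 384 normalised reads in vehicle and 346, 349.8 and 401 in NTG. NTG replicate 3 lay among the vehicle libraries, and the log2 fold change was -0.12 ± 0.10 (limma adjusted p = 0.410). Eng shares 61 bases with Fpgs on the opposite strand, and the strand setting of the counting is not given in the sources used here. Of 12 other genes of this pathway tested, 1 rose and 2 fell, where 12.3% of all genes tested rose and 13.5% fell. Bmpr2, the type II receptor of the pathway, rose from 3679 ± 404 to 4995 ± 148 normalised reads (0.45 ± 0.07, limma adjusted p = 0.000103). The BMP target Id3 fell from 1535 ± 119 to 1255 ± 86.4 and the ligand gene Bmp6 from 307 ± 13.6 to 226 ± 21.6 (limma adjusted p = 0.00608 and 0.00885). Leaving out NTG replicate 1 ended the call of Bmp6 (-0.40, limma adjusted p = 0.0525). The partner receptor gene Acvrl1, which encodes ALK1 and was chosen after its values were seen, stood at 285 ± 51.8 and 280.1 ± 17.5 normalised reads (limma adjusted p = 0.973). In the GC-corrected fit the log2 fold changes were 0.14 for Bmpr2, -0.13 for Id3 and -0.22 for Bmp6, and none of these 3 passed (limma adjusted p = 0.12, 0.241 and 0.285). Bmp6 also shares 49 bases with Txndc5 on the other strand, a gene with 7.53 times as many normalised reads.

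Cldn5 (chr16:18776847-18778262, plus strand), the main tight junction claudin of brain and nerve vessels, was listed at 898, 662 and 701 normalised reads in vehicle and at 574, 598 and 618 in NTG. Each NTG value was below each vehicle value, and vehicle replicate 1 stood well above the rest. The mean went from 753 ± 127 to 597 ± 22.1 (SD, n = 3 each), a log2 fold change of -0.32 ± 0.10 with a 95% confidence interval of -0.53 to -0.12 (limma adjusted p = 0.0205). The call was lost without vehicle replicate 1, where the change shrank to -0.19 (limma adjusted p = 0.128). It was lost too without NTG replicate 1 (-0.30, limma adjusted p = 0.0757) and without NTG replicate 2 (-0.33, limma adjusted p = 0.0616).

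Cdh5 (chr8:104101613-104144504, plus strand), which encodes VE-cadherin, stood at 547, 572 and 399.9 normalised reads in vehicle and at 550.0, 580.2 and 554 in NTG. Vehicle replicate 3 was low and the other 5 libraries lay within 547 to 580.2. The log2 fold change of 0.17 ± 0.11 did not pass (limma adjusted p = 0.308) and was 0.00 without vehicle replicate 3 (limma adjusted p = 0.981). Pecam1 (chr11:106654213-106715281, minus strand), the adhesion molecule CD31 of endothelium, leukocytes and platelets, was listed at 463, 384 and 353 in vehicle and 408, 477 and 492 in NTG. Its groups overlapped (0.20 ± 0.11, limma adjusted p = 0.198), and without vehicle replicate 1 it passed (0.31, limma adjusted p = 0.0432). Esam (chr9:37528089-37538319, plus strand), an adhesion molecule of endothelial tight junctions, stood at 404, 315 and 327 in vehicle and 239.9, 327 and 281 in NTG. NTG replicate 2 reached the vehicle range, and the log2 fold change was -0.30 ± 0.13 (limma adjusted p = 0.0905). The junction genes thus did not share a direction: Cldn5 and Esam had lower means in NTG, Cdh5 and Pecam1 higher ones. The ratio of Cldn5 to Cdh5, chosen after its values were seen, was 1.52 ± 0.32 in vehicle and 1.06 ± 0.05 in NTG, and that of Esam to Pecam1 0.87 ± 0.05 and 0.62 ± 0.06 (SD, n = 3 each). In neither ratio did the groups overlap. Each pair sets a gene with a lower NTG mean over one with a higher NTG mean, which favours such a split. The ratios thus add no support to the single genes. Transcript GC content was 60.5% for Cldn5, 52.2% for Cdh5, 53.7% for Esam and 50.2% for Pecam1, and its part in the ratios was not tested.

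Of 11 other junction genes tested, 5 rose and 1 fell, where 12.3% of all genes tested rose and 13.5% fell. Tjp1, the scaffold ZO-1, rose from 1814 ± 142 to 2289 ± 155 normalised reads (0.34 ± 0.07, limma adjusted p = 0.0013). Jam2, a junctional adhesion molecule, rose from 874 ± 34.0 to 1059 ± 48.9 (limma adjusted p = 0.00764), and Ctnnd1, the catenin p120 that steadies cadherins, from 3386 ± 114 to 3921 ± 226 (limma adjusted p = 0.0101). Jup, plakoglobin, fell from 6495 ± 429 to 5149 ± 430.4 (limma adjusted p = 0.000635). Leaving out NTG replicate 1 ended the call of Ctnnd1 (0.16, limma adjusted p = 0.0688). Other ganglion cells express these 4 genes as well. In the GC-corrected fit 1 of the 11 passed, Tjp1 (0.20, limma adjusted p = 0.0351), near the share of 8.98% of all genes.

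Egfl7 (chr2:26581083-26592682, plus strand) encodes a secreted protein of endothelial matrix that takes part in vessel tube formation. Egfl7 was listed at 758, 609 and 618 normalised reads in vehicle and 541, 514 and 615 in NTG. Only NTG replicate 3 entered the vehicle range. The log2 fold change was -0.25 ± 0.10 (limma adjusted p = 0.0708), and it passed without vehicle replicate 3 (-0.29, limma adjusted p = 0.0494) and without NTG replicate 3 (-0.32, limma adjusted p = 0.0337).

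**Figure D2:**
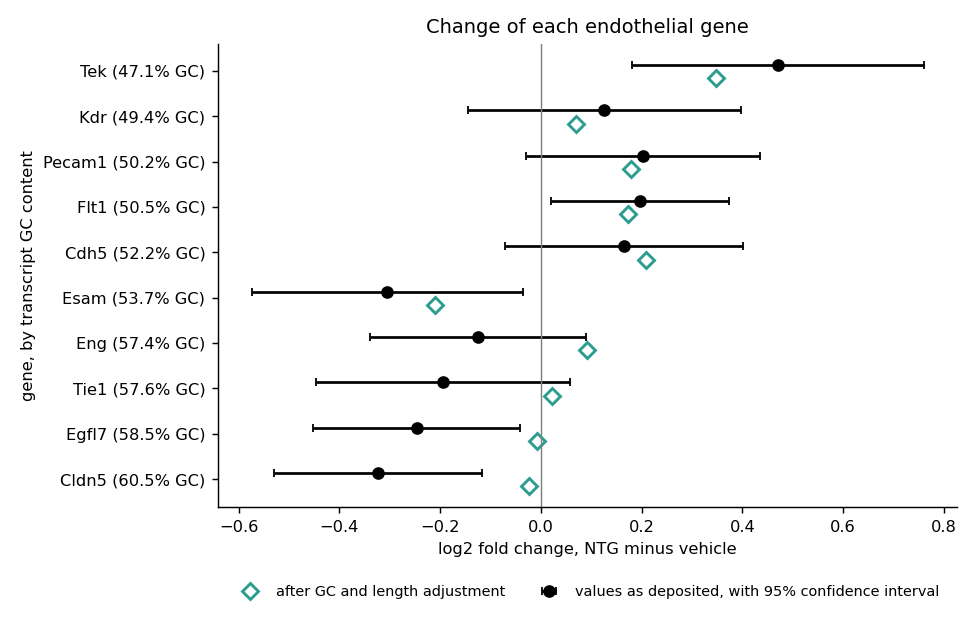
Log2 fold change (NTG minus vehicle, horizontal axis) of each endothelial gene, ordered from the lowest to the highest transcript GC content (vertical axis). Black points show the deposited values with 95% confidence intervals and open diamonds the same genes in the GC-corrected fit. Before it, the 5 genes up to 52.2% GC lie above 0 and the 5 from 53.7% GC lie below 0.

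Direction followed base composition among the members. The 5 genes with a higher mean in NTG had a transcript GC content of 47.1% to 52.2%, and the 5 with a lower mean 53.7% to 60.5%. Tek had the lowest GC content of the 10 and the highest log2 fold change, and Cldn5 had the highest GC content and the lowest log2 fold change. Protein-coding genes within 1 percentage point of the GC content of Cldn5 had a median log2 fold change of -0.30 (616 genes), against -0.32 for Cldn5 itself. Around Egfl7 the median was -0.23 (1033 genes), around Tie1 -0.21 (1235 genes) and around Eng -0.20 (1276 genes). Their own values were -0.25, -0.19 and -0.12. Tek, at 0.47, lay above the upper quartile of 0.24 for its 1525 GC neighbours, whose median was 0.12. Pecam1, Flt1 and Cdh5, at 0.20, 0.20 and 0.17, also lay above their upper quartiles of 0.15, 0.14 and 0.09. Esam, at -0.30, lay below the lower quartile of -0.21 for its 1621 neighbours. Kdr, Cldn5, Egfl7, Tie1 and Eng lay between the quartiles of their neighbours.

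**Figure D3:**
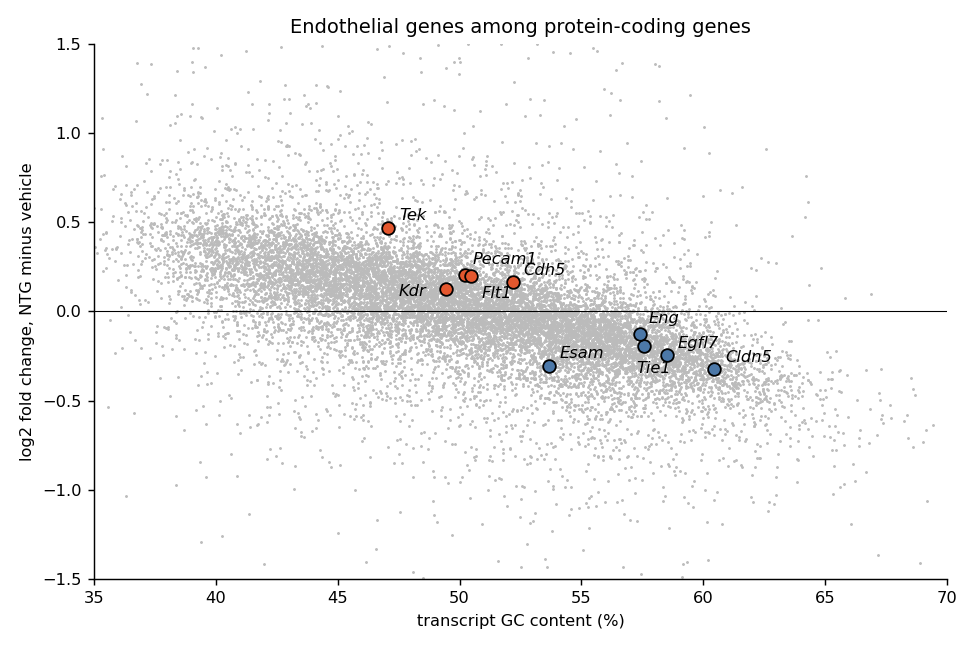
Log2 fold change (NTG minus vehicle, vertical axis) against transcript GC content (percent, horizontal axis) of protein-coding genes (grey) and the 10 endothelial genes (red where the NTG mean was higher, blue where lower); 109 of 14932 genes fall outside the axes. The endothelial genes run from Tek at the upper left to Cldn5 at the lower right, the direction in which the grey points slope. Tek, Pecam1, Flt1 and Cdh5 lie above the upper quartile of their GC neighbours, and Esam lies below the lower quartile.

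The trend with GC content differed between the groups. Per 10 percentage points of GC, log2 values sloped by 0.11, 0.19 and 0.16 in vehicle replicates 1 to 3 and by -0.22, -0.17 and -0.08 in NTG replicates 1 to 3. The slopes split with the groups, so a GC effect of the libraries and an effect of NTG on GC-rich genes cannot be told apart. In the GC-corrected fit 0 of the 10 genes passed in limma, where 8.98% of all genes did (3.48% upward and 5.5% downward), and 2 of the 10 (Flt1 and Tek) had an unadjusted p under 0.05. The edgeR test without this adjustment called 2 of the 10, Tek and Cldn5. The adjusted log2 fold change of Cldn5 was -0.02 ± 0.10 (limma adjusted p = 0.929) and that of Egfl7 -0.01 ± 0.09 (limma adjusted p = 0.972). Tek kept a value of 0.35 ± 0.14 but did not pass (limma adjusted p = 0.128). The 4 other genes with higher means in NTG stayed between 0.07 for Kdr and 0.21 for Cdh5, and Esam stood at -0.21. Tie1 and Eng changed sign, to 0.02 and 0.09. In all, 7 of the 10 were above 0 and the median was 0.08, against 0.01 for all genes tested.

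Vehicle libraries differed among themselves. Vehicle replicate 1 was the highest vehicle library in 6 of the 10 genes (Pecam1, Cldn5, Kdr, Flt1, Egfl7 and Esam) and the lowest in 0. Vehicle replicates 2 and 3 were each the lowest in 5. The summed level of the 10 genes was 5128, 4540.2 and 4274 normalised reads in vehicle and 4430.3, 4653 and 4566 in NTG, so the 3 NTG libraries lay within the vehicle range. In 7 of the 10 genes the SD was larger in vehicle than in NTG. NTG replicate 1 was the lowest NTG library in 6 genes but the highest in Flt1 and Tek.

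**Figure D4:**
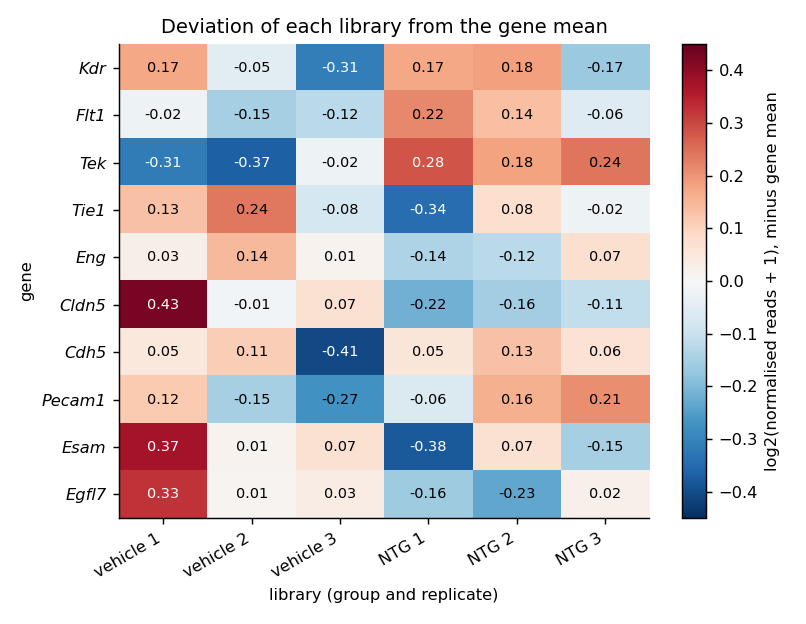
Deviation of each library (columns, group and replicate) from the mean of the gene over the 6 libraries, on log2(normalised reads + 1), for the 10 endothelial genes (rows); red is above and blue below the mean. Vehicle replicate 1 is high in Cldn5, Esam and Egfl7, vehicle replicate 3 is low in Cdh5, Kdr and Pecam1, and only the Tek and Cldn5 rows separate the groups.

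Levels per kilobase of the longest protein-coding transcript placed Cldn5 first in vehicle (532 ± 89.4 normalised reads per kilobase, SD, n = 3), followed by Egfl7 (476 ± 60.2), Esam (187 ± 26.0), Cdh5 (127 ± 23.3), Eng (116 ± 5.89), Pecam1 (116 ± 16.6), Flt1 (101 ± 4.77), Tie1 (91.2 ± 9.996), Kdr (55.6 ± 9.31) and Tek (35.3 ± 4.69). Ranges of neighbours overlapped for Cldn5 and Egfl7 and all along the run from Cdh5 to Tie1. They did not overlap between Egfl7 and Esam, Esam and Cdh5, Tie1 and Kdr, or Kdr and Tek. The tyrosine kinase receptors Flt1, Tie1, Kdr and Tek thus held the 4 lowest places. Divided by the length of all annotated exons instead, vehicle means were 185 normalised reads per kilobase for Egfl7, 78.5 for Tie1, 64.2 for Pecam1 and 51.8 for Flt1, which puts Tie1 above Pecam1.

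Genes of the wider vessel program were counted in lists written from textbook knowledge, with earlier results of these data known. Of 111 such genes beside the 10, 18 rose and 14 fell, with a median log2 fold change of -0.01, and in the GC-corrected fit 5 rose and 4 fell. Both counts are near the background of 25.8% and 8.98% of all genes. Of 25 other pan-endothelial markers 5 passed, all upward, where 12.3% of all genes tested rose. As many passed in edgeR, and 7 had an unadjusted p under 0.05 in limma. Summed without GC correction, the list ran from 6570 to 7262 normalised reads in vehicle and from 7337 to 7645 in NTG. Itm2a, Adgrf5 and Cd34 had the highest levels in that sum. In the GC-corrected fit 2 of the 25 passed, Adgrl4 and Podxl, both upward, where 3.48% of all genes rose. Adgrl4, an adhesion receptor of angiogenic endothelium also called ELTD1, stood at 125, 63.8 and 126 normalised reads in vehicle and at 216, 231 and 208 in NTG. The groups were far apart, with vehicle replicate 2 the lowest library. Adgrl4 rose by 1.12 ± 0.21 on the log2 scale (limma adjusted p = 0.00114) and by 0.88 in the GC-corrected fit (limma adjusted p = 0.00876). Podxl, a sialomucin of the luminal surface, stood at 567, 479 and 502 in vehicle and at 678, 627 and 675 in NTG, again without overlap. Podxl rose by 0.36 ± 0.09 (limma adjusted p = 0.00522), and by 0.39 in the GC-corrected fit (limma adjusted p = 0.00463). Itm2a and Ly6c1 rose by 0.20 and 0.33 (limma adjusted p = 0.029 and 0.0338), but each passed in only 1 of the 6 fits that left out a library, and in the GC-corrected fit Itm2a was at -0.05 and Ly6c1 at 0.30 (limma adjusted p = 0.688 and 0.0836). The fifth, Cd34, which the naming rule did not select, went from 764 ± 39.2 to 896 ± 55.1 normalised reads (limma adjusted p = 0.036), and did not pass in the GC-corrected fit (0.17, limma adjusted p = 0.172).

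Of 11 barrier and transport genes 4 rose and 1 fell, where 12.3% of all genes tested rose and 13.5% fell. Abcb1a, the efflux pump P-glycoprotein, rose from 773 ± 67.0 to 1017 ± 83.2 normalised reads (limma adjusted p = 0.00151), and Cav1, the coat protein of caveolae, from 1046 ± 25.2 to 1410 ± 111 (limma adjusted p = 0.000217). Abcb1a overlaps Rundc3b on the opposite strand over 55994 bases, and Rundc3b was listed at 0.333 times the level of Abcb1a. The pump Abcg2 and the organic anion carrier Slco1a4 rose by 0.43 and 0.53 on the log2 scale (limma adjusted p = 0.00039 and 0.00418). In the GC-corrected fit 1 of the 11 passed, Cav1 (0.20, limma adjusted p = 0.0485), near the share of 8.98% of all genes. The gene that fell was Plvap, the diaphragm protein of fenestrae (-0.49, limma adjusted p = 0.0414), which the naming rule did not select.

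Of 11 Notch pathway genes 1 rose and 5 fell, where 12.3% of all genes tested rose and 13.5% fell. In the GC-corrected fit 8.98% of all genes passed. The receptor gene Notch1 fell from 1512 ± 145 to 1067 ± 87.4 normalised reads (limma adjusted p = 0.000126) and was the one of these that still passed in the GC-corrected fit (-0.32, limma adjusted p = 0.00231). The ligand gene Jag2 fell by 0.36 on the log2 scale (limma adjusted p = 0.00281), and its adjusted value was -0.00. Rbpj, the nuclear effector, rose from 418 ± 24.6 to 539.9 ± 43.4 (limma adjusted p = 0.00738), a call lost without NTG replicate 2 (0.33, limma adjusted p = 0.0522). Of 15 transcription factor genes 1 rose and 2 fell. Klf2, the flow-responsive factor, fell from 434 ± 93.8 to 269 ± 35.5 (limma adjusted p = 0.00322), and Foxc1 from 369.6 ± 36.5 to 233 ± 29.2 (limma adjusted p = 0.000538). Mef2c rose by 0.24 on the log2 scale (limma adjusted p = 0.0244) and stood at -0.03 in the GC-corrected fit. Foxc1 passed in the GC-corrected fit (-0.50, limma adjusted p = 0.00799) and Klf2 did not (-0.33, limma adjusted p = 0.2). Of 11 vasoactive and haemostatic genes 1 rose and 1 fell. Ptgs1, cyclooxygenase-1, rose from 47.8 ± 10.8 to 82.6 ± 6.79 (limma adjusted p = 0.0163), a call lost without vehicle replicate 2, NTG replicate 1 or NTG replicate 3 (limma adjusted p = 0.0668, 0.062 and 0.0698). Vwf, von Willebrand factor, fell from 864 ± 12.7 to 707 ± 48.9 (limma adjusted p = 0.00857), a call lost without NTG replicate 2 (limma adjusted p = 0.062) and in the GC-corrected fit (-0.12, limma adjusted p = 0.408). Rbpj was at 0.16 and Ptgs1 at 0.81 in the GC-corrected fit, and Ptgs1 passed there (limma adjusted p = 0.319 and 0.0311). Many of these genes are also expressed by glia, neurons or mural cells of the ganglion.

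**Figure D5:**
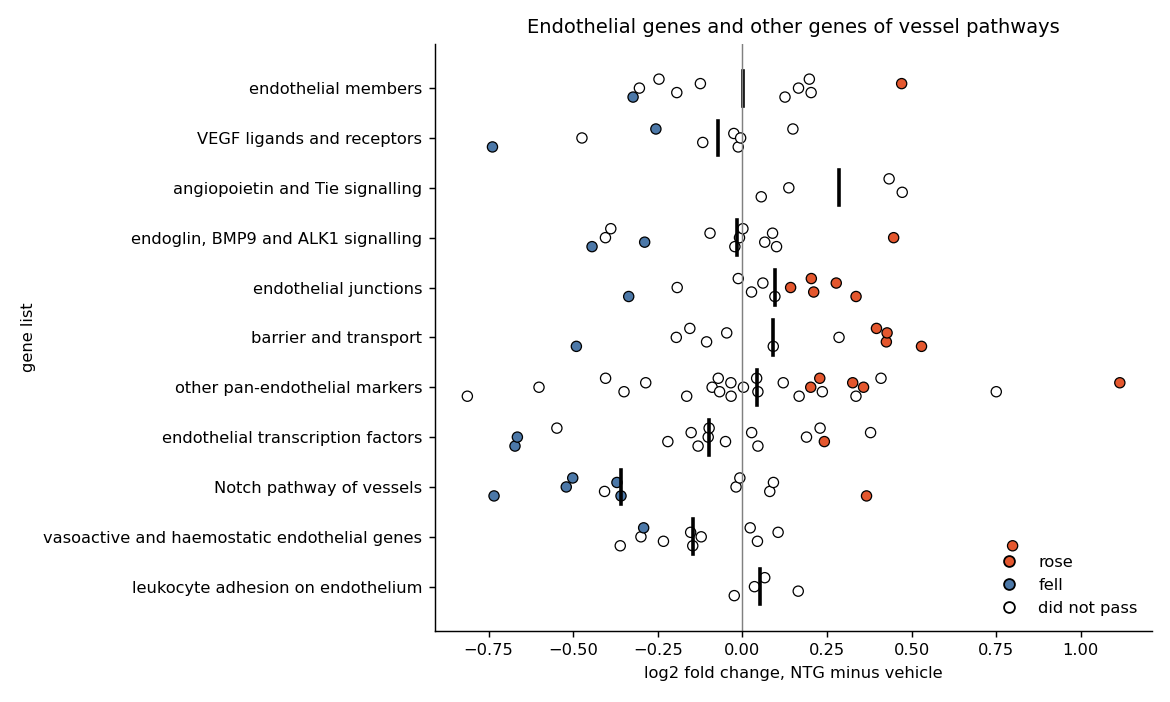
Log2 fold change (NTG minus vehicle, horizontal axis) of the 10 endothelial genes and of the other genes of each vessel list (vertical axis), with members left out of the other lists. Red points rose, blue points fell, white points did not pass, and the black bar is the list's median; Adgrl4 is the rightmost point at 1.12.

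Cell types that share some of the 10 genes were followed by their own markers. Among all genes tested 12.3% rose and 13.5% fell. Platelets and leukocytes share Pecam1 with endothelium, macrophages can express Eng, and lymphatic endothelium shares several of the others. Summed leukocyte markers ran from 2880.0 to 3152 normalised reads in vehicle and from 2574 to 2724 in NTG. Of these 8 markers 1 fell, Laptm5, and their median log2 fold change was -0.22, or -0.04 in the GC-corrected fit. Summed macrophage markers ran from 3376 to 3572 and from 2748 to 2944, and the 3 of 10 that fell were the complement genes C1qa, C1qb and C1qc. The median of the 10 was -0.23, or -0.18 in the GC-corrected fit, where C1qc passed. Of 8 platelet markers 5 were tested, with sums of 1266 to 1441 and 1085 to 1216. Most of that sum was Gp1bb, the one platelet marker that fell, and the median of the 5 was 0.09, so the lower sum was not shared by the list. Of 7 lymphatic markers 6 were tested, with no call in either direction by limma or edgeR. In limma 0 of them had an unadjusted p under 0.05. Their sums were 4261 to 4544 in vehicle and 4496 to 4915 in NTG, and Reln had the highest level. The median log2 fold change of the 6 was 0.23, or 0.12 in the GC-corrected fit. Pericyte and smooth muscle markers summed to 5244 to 5769 and 5526 to 5560, and of 12 tested 1 rose and 1 fell.

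Among the other tissue lists, skeletal muscle markers moved the most. Of the 11, 6 fell, against 13.5% of all genes tested, with a median log2 fold change of -1.17. In the GC-corrected fit 4 fell, against 5.5% of all genes, with a median of -0.98. These genes were scarce, Myh4 falling from a mean of 48.3 to one of 5.14 normalised reads (limma adjusted p = 0.000804). The muscle sum ran from 1480.1 to 1636 in vehicle and from 1329 to 1484 in NTG, and most of it was Pvalb, which sensory neurons also express and which did not pass. Satellite glia markers summed to 89540 to 93481 and 76941 to 82607, but most of the sum was Apoe. Of these 6 markers 1 rose and 2 fell, with a median log2 fold change of 0.01. Sensory neuron markers summed to 228827 to 234553 and 204228 to 213602, and of 10 tested 1 rose and 4 fell, with a median of -0.08. Schwann cell, fibroblast and red cell sums overlapped between the groups. No listed marker of these cell types was at 0 in every library. Their part in the values of the 10 genes was not tested.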

How the data were processed

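Bulk RNA was extracted with TRIzol, enriched with poly-T beads and sequenced as strand-specific paired-end libraries, per the labels' protocols. HISAT2 and GRCm38 are named in the submitters' processing notes. For the counter, annotation and scaling: not given in the sources used here. The deposited signal values are normalised reads, and dividing by the smallest step of each library returned whole reads for 100% of values (tolerance 0.01). All 10 members have the same coordinates in the GRCm38.p6 RefSeq table. The smallest gene total was 24 reads, so genes below it were not analysed here.

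Values were taken as log2(value + 1), genes reaching 1 normalised read in 3 or more libraries were kept, and NTG was compared with vehicle by limma 3.58.1 (trend, robust, R 4.3.3) with Benjamini-Hochberg adjustment. Intervals are 95% confidence intervals. GC and length trends were fitted per library with mgcv 1.9.3 on the longest protein-coding transcript of GENCODE M21, available for 93.1% of genes. edgeR 4.0.16 and DESeq2 1.42.0 were alternatives on the recovered reads, beside voom, other scalings, filters and pseudocounts, and each library left out. The fits were tested on simulated data. There limma-trend called 52% of the 1.5-fold changes and 72% of the 2-fold changes. With the GC slopes of the libraries added it called 2567 genes, and 94.1% of these calls were genes simulated as unchanged. With the GC and length adjustment it called 146 genes, 9.59% of them unchanged. In these runs the slopes were put in as a library effect, of the kind the adjustment is built to remove. They therefore cannot tell a GC effect of the real libraries from an effect of NTG on GC-rich genes. Replicates differed by more than counting noise, with chi-square per degree of freedom of 4.10 to 7.99.

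The genes named are the 10 members, up to 4 genes per list with the smallest limma p, and 3 genes whose pattern over libraries is nearest to the mean of the members. The members and lists were chosen with earlier results of these data known.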

Additional observations from a re-analysis of the deposited data

How the results depend on the processing

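Over 19 alternatives, Tek passed in 14 and Cldn5 in 13, with limma, edgeR and DESeq2 among them. Kdr, Cdh5, Tie1, Eng and Esam passed in none of the 19. With 1 library left out, 0 to 4 of the 10 endothelial genes passed and 2946 to 4678 of all genes. The 0 came without NTG replicate 1, where 3 had an unadjusted p under 0.05. Only 1 passed without vehicle replicate 2 or NTG replicate 2, and 4 passed without NTG replicate 3. The lowest count over all genes was without NTG replicate 2. The GC and length adjustment gave 0 of 10 (2 at an unadjusted p under 0.05) and 1462 of all genes, the adjustment with the replicate block 0 (3 unadjusted) and 2017, and a minimum fold of 1.2 gave 0 (0 unadjusted) and 313.

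Replicate numbers showed no sign of pairing: deviations of same-numbered libraries correlated at 0.00, -0.03 and -0.02 across genes. With 3 libraries a group this cannot exclude pairing, which the labels do not state. The replicate block gave 3 of the 10, Egfl7 being the third, and 5254 of all genes, against 4512 of all genes without it.

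Signs turned under the GC and length adjustment, with and without the block, for Tie1 (0.023), Eng (0.091), Ptprb (-0.085), Mef2c (-0.035) and Itm2a (-0.053). With libraries left out in turn, Ptprb ran from -0.012 (without NTG replicate 2) to 0.102 (without NTG replicate 3). The cause was not tested. With 3 libraries a group, the intervals of the 8 genes that did not pass allow changes of up to 0.57 on the log2 scale in size, the widest bound being -0.57 for Esam.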

Other observations

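Over the 6 libraries, the mean deviation of the 10 endothelial genes on the log2 scale was 0.13, -0.02 and -0.10 in vehicle replicates 1 to 3 and -0.06, 0.04 and 0.01 in NTG replicates 1 to 3. Among 12927 protein-coding genes, the ones nearest to this pattern by mean absolute difference were Psmd11 (0.0156), Slc1a4 (0.0184) and Def8 (0.0190). Psmd11 encodes a proteasome subunit and Slc1a4 a neutral amino acid transporter.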
